A study of Homo sapiens with 6 samples.

Results

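The transcripts described here were 10 snoRNA host genes with terminal oligopyrimidine (TOP) sequences, namely GAS5, SNHG1, SNHG5, SNHG6, SNHG7, SNHG8, SNHG12, SNHG15, SNHG16 and ZFAS1. They were taken by symbol from the 27470 genes of the count table, and all 10 had a row. All 10 passed the filter on low counts (edgeR's filterByExpr), as did 12233 genes in all. RNA came from 22Rv1, a line of human prostate cancer cells that grow without androgen, into which ABHD5 had been put on a lentiviral vector behind a doxycycline (Dox)-inducible promoter, with selection in G418. Both conditions carried this vector. There were 3 libraries grown without Dox and 3 grown with Dox, with 48 h of culture stated for the series. Whether the selected cells were a single clone and whether the replicates were separate cultures is not given in the sources used here, so p-values measure the spread between these libraries. Parent cells given Dox were not analysed here, so Dox and ABHD5 cannot be told apart.

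SnoRNA host genes carry small nucleolar RNAs in their introns. These short RNAs guide the modification of ribosomal RNA and are trimmed out of the excised introns, while the exons are joined into a long RNA that is exported. In TOP transcripts the first base is a C that is followed by an unbroken run of pyrimidines, and it is through this run that mTORC1 and the binding protein LARP1 control translation, as in ribosomal protein mRNAs. The spliced host RNAs hold little or no conserved reading frame, and several of them, GAS5 being the classic case, are bound by ribosomes and destroyed by nonsense-mediated decay when they are translated. GAS5 was named for its accumulation in growth-arrested cells.

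The starts of host transcripts are shown because these genes were grouped as having TOP sequences. Each window holds 40 bases of hg38 on the strand of the gene, from 15 bases before the first base. The start is the most used of the GENCODE 44 transcript starts whose first base is C, and capitals mark the run of pyrimidines that begins there.
GAS5: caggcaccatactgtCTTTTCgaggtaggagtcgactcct
SNHG1: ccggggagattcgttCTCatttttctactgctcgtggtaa
SNHG5: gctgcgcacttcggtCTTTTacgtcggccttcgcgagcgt
SNHG7: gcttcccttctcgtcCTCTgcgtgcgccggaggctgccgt
SNHG8: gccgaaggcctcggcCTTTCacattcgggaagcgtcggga
SNHG12: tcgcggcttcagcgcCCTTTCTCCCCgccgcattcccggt
SNHG16: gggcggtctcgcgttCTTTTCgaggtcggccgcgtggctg
ZFAS1: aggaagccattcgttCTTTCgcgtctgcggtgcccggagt
The windows lie at chr1:173867965-173868004 (minus strand) for GAS5, chr11:62855861-62855900 (minus) for SNHG1, chr6:85678709-85678748 (minus) for SNHG5 and chr9:136728160-136728199 (minus) for SNHG7. Those of SNHG8, SNHG12, SNHG16 and ZFAS1 lie at chr4:118278743-118278782 (plus), chr1:28581849-28581888 (minus), chr17:76557754-76557793 (plus) and chr20:49278627-49278666 (plus). SNHG6 and SNHG15 are named without a sequence.

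The run was at least 5 bases long in 6 of these 8 windows, which is a description of starts that were picked for a first base of C. It was longest in SNHG12, with 11 bases, and shortest in SNHG1, with 3. The annotated starts are not exact. At the single start that RefSeq gives for a gene on GRCh38.p14, 3 of these 8 genes had a run of at least 5 (37.5%), namely SNHG5, SNHG12 and ZFAS1, against 4.07% of 35116 RefSeq promoters. For GAS5, 50 of 91 annotated transcripts began at the C shown, while its RefSeq start began no such run. SNHG5 had 3 of 89 transcripts that began at the C shown.

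In GENCODE 44 all 10 genes are long noncoding RNAs. GAS5 spans chr1:173858559-173868882 on the minus strand with 12 exons in its canonical transcript, SNHG1 chr11:62851978-62855953 (minus, 11 exons) and SNHG5 chr6:85650491-85678932 (minus, 6 exons). SNHG6 spans chr8:66920561-66926398 (minus, 3 exons), SNHG7 chr9:136721366-136728184 (minus, 6 exons) and SNHG8 chr4:118278703-118285316 (plus, 3 exons). SNHG12 spans chr1:28578538-28583132 (minus, 6 exons), SNHG15 chr7:44983019-44986961 (minus, 3 exons), SNHG16 chr17:76557727-76670985 (plus, 4 exons) and ZFAS1 chr20:49278178-49299600 (plus, 5 exons). Libraries of this kind are primed at the poly(A) tail, so reads come from the end of a transcript rather than from its whole length, and levels are compared here only within a gene.

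The libraries held 3394672 to 7271771 reads on genes. Reads that fell on no gene were 32.5% to 34.6% of those listed without Dox and 35.6% to 39.5% with Dox, so these ranges did not overlap. Ambiguous reads were 3.05% to 3.21% without Dox and 3.24% to 3.37% with Dox. Their part in the results below was not tested. ABHD5, the induced gene, had 63.5, 58.0 and 62.8 CPM without Dox (reads per unit of library size, with TMM factors) and 125.9, 130.8 and 91.7 CPM with Dox (log2 fold change 0.91, standard error (SE) 0.15, adjusted p = 1.978e-04, edgeR's quasi-likelihood test). How many reads from the end of the vector's ABHD5 transcript fall on this row is not known, so its fold change need not be that of the induction. Every one of 10 prostate epithelial markers had reads in the libraries. With Dox 6 of the 10 were lower, among them KLK2 (log2 fold change -1.69), beside 13.7% of all genes tested. The summed level of the 10 markers was 1500 to 1590 CPM on library totals without Dox and 1040 to 1140 with Dox. Of 10 stromal, endothelial and blood markers, 7 had 3 counts or fewer in every library, 4 of these were at 0 throughout, and the sum was 4.71 to 9.02 CPM without Dox and 6.65 to 11 with Dox. COL1A1 was the single call among them (log2 fold change 1.22), and it was lost in 6 of 14 other settings, among them DESeq2 (adjusted p = 0.0617). In bulk RNA of a cell line, fewer cells that express a gene and less of its RNA per cell cannot be told apart.

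The snoRNA host transcripts did not move as a group. Of the 10, 2 rose with Dox (GAS5 and ZFAS1), 3 fell (SNHG1, SNHG16 and SNHG8) and 5 did not pass the test (adjusted p under 0.05, with adjustment over every gene tested). Among all genes tested, 25.5% were called, 11.9% as higher and 13.7% as lower. The median log2 fold change of the 10 was -0.31, against 0.02 over all genes tested. In 2 of them (GAS5 and SNHG5) each library with Dox lay above each library without Dox, as it did in 19.0% of all genes, and in 4 (SNHG1, SNHG6, SNHG8 and SNHG16) each lay below, as in 20.5% of all genes. The CPM of the 10 summed to 1315 to 1557 without Dox and 1298 to 1337 with Dox, so that the sums overlapped.

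**Figure D1:**
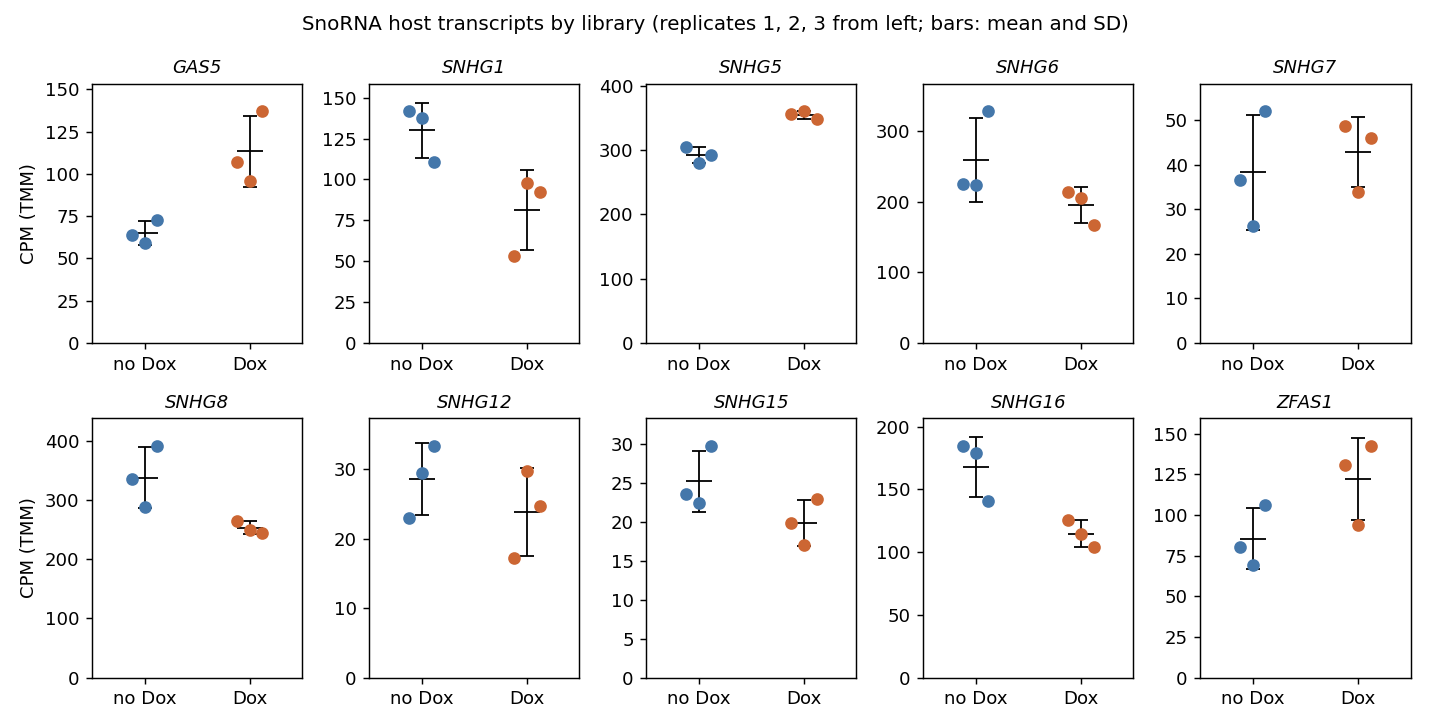
Level of each snoRNA host transcript in CPM after TMM normalization (vertical axes from 0, a scale for each gene) in the 3 libraries without Dox (blue) and the 3 with Dox (orange), with mean and SD as black bars. The 2 conditions are apart in GAS5, SNHG1, SNHG5, SNHG6, SNHG8 and SNHG16 and overlap in SNHG7, SNHG12, SNHG15 and ZFAS1.

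GAS5, which carries 10 snoRNAs of the box C/D class in its introns, had the largest rise among the 10 genes. It had 63.7, 58.9 and 72.8 CPM without Dox and 107, 96.0 and 136.9 CPM with Dox. Each library with Dox was above each library without it, and the highest of all was replicate 3 with Dox. The mean went from 65.2 ± 7.04 to 113.3 ± 21.2 CPM (SD, n = 3 each), a 1.74-fold rise (log2 fold change 0.80, SE 0.15, adjusted p = 7.141e-04, edgeR's quasi-likelihood test). Under 15 other settings, leaving out each library in turn included, GAS5 stayed past the threshold with a log2 fold change of 0.63 to 0.92.

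ZFAS1 starts beside the gene ZNFX1 on the opposite strand and carries 3 box C/D snoRNAs. It had 80.5, 69.5 and 106.3 CPM without Dox and 130.7, 93.8 and 142.3 CPM with Dox. Replicate 2 with Dox lay below replicate 3 without Dox, so the conditions overlapped. The log2 fold change was 0.51 (SE 0.17, adjusted p = 0.0342, edgeR's quasi-likelihood test). Among libraries without Dox, leaving out replicate 1 or 2 lost the call (adjusted p = 0.137 and 0.152, same test in edgeR) and so did leaving out replicate 1 or 3 with Dox (adjusted p = 0.124 and 0.115, same test in edgeR).

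SNHG1 carries 8 box C/D snoRNAs and had the largest fall among the 10. It had 141.6, 137.7 and 110.7 CPM without Dox and 53.3, 98.0 and 92.2 CPM with Dox, where replicate 1 stood lowest. The conditions did not overlap, and the mean went from 130 ± 16.8 to 81.2 ± 24.3 CPM (SD, n = 3 each). The log2 fold change was -0.68 (SE 0.18, adjusted p = 0.0111, edgeR's quasi-likelihood test). With replicate 1 of the Dox libraries left out it was -0.45, and the call was lost (adjusted p = 0.0625, same test in edgeR).

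SNHG16, which hosts 3 box C/D snoRNAs, had 184.4, 178.9 and 140.7 CPM without Dox and 125.3, 114.7 and 103.9 CPM with Dox. The conditions did not overlap, and the means were 168 ± 23.8 and 114.6 ± 10.7 CPM (SD, n = 3 each). It fell by 31.7% (log2 fold change -0.55, SE 0.14, adjusted p = 0.00627, edgeR's quasi-likelihood test). Like GAS5, SNHG16 stayed past the threshold under each of the 15 other settings, with a log2 fold change of -0.67 to -0.43.

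SNHG8 carries the box H/ACA snoRNA SNORA24. Its level was 334.9, 287.8 and 390.7 CPM without Dox and 265.1, 249.6 and 244.1 CPM with Dox. The libraries with Dox lay close together and below all of those without. The log2 fold change was -0.42 (SE 0.13, adjusted p = 0.0263, edgeR's quasi-likelihood test). This call was lost with library totals alone (-0.30, adjusted p = 0.100, same test in edgeR), on leaving out replicate 1 or 3 of those without Dox (adjusted p = 0.0709 and 0.137, same test in edgeR) and on leaving out replicate 1 or 3 with Dox (adjusted p = 0.0629 and 0.0515, same test in edgeR).

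SNHG6 and SNHG5 did not pass the threshold although their conditions did not overlap. SNHG6, the host of SNORD87, had 225.7, 224.2 and 328.5 CPM without Dox and 214.8, 205.4 and 167.1 CPM with Dox. Replicate 3 stood highest without Dox and lowest with Dox. The log2 fold change was -0.41 (95% interval -0.74 to -0.09, adjusted p = 0.0600, edgeR's quasi-likelihood test), and it passed with the filter on low counts removed (adjusted p = 0.0155, same test in edgeR) and on leaving out replicate 2 without Dox (adjusted p = 0.0398, again in edgeR). Leaving out replicate 3 without Dox, the highest library, brought it to -0.21 (adjusted p = 0.365, again in edgeR).

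SNHG5, the host of SNORD50A and SNORD50B, had 305.1, 280 and 292.7 CPM without Dox and 355.3, 360.1 and 348.1 CPM with Dox. Its replicates were the most alike of the 10 genes, with a coefficient of variation of 4.28% without Dox and 1.71% with Dox. The log2 fold change was 0.28 (95% interval 0.03 to 0.52, adjusted p = 0.0938, edgeR's quasi-likelihood test). It passed with upper-quartile normalization (0.33, adjusted p = 0.0458, same test in edgeR) and with library totals alone (0.40, adjusted p = 0.0173, same test in edgeR).

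The remaining 3 genes overlapped between conditions. SNHG15, the host of SNORA9, had 23.5, 22.3 and 29.7 CPM without Dox and 19.8, 17.0 and 22.9 CPM with Dox (log2 fold change -0.34, 95% interval -0.73 to 0.06). SNHG12, which carries 3 H/ACA snoRNAs and SNORD99, had 23.0, 29.5 and 33.3 CPM without Dox and 17.2, 29.8 and 24.7 CPM with Dox (log2 fold change -0.28, 95% interval -0.71 to 0.16). SNHG7, with a pair of H/ACA snoRNAs, had 36.6, 26.4 and 52.0 CPM without Dox and 48.7, 34.0 and 46.1 CPM with Dox (log2 fold change 0.15, 95% interval -0.29 to 0.58). Its replicates without Dox varied most of the 10 genes, with a coefficient of variation of 33.7%. The adjusted p was 0.206, 0.355 and 0.645 for SNHG15, SNHG12 and SNHG7 (edgeR's quasi-likelihood test). Leaving out replicate 1 with Dox brought SNHG12 to -0.09, and leaving out replicate 3 without Dox brought it to -0.14 and SNHG15 to -0.19. SNHG12 was -0.42 without replicate 1 of the untreated cells and -0.44 without replicate 2 of those given Dox. SNHG7 was -0.06 on leaving out replicate 2 without Dox and 0.45 on leaving out replicate 3 without Dox. The values of SNHG7 were also lower, at 0.06 to 0.09, without replicate 1 of either condition or replicate 3 with Dox, and 0.28 without replicate 2 with Dox. The 95% intervals given still allow a fall to about the size of that of SNHG1 in SNHG15 and SNHG12.

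Scaling moves these values together. Scaled by library totals alone, the table had a median log2 fold change of 0.14 in place of 0.02, and 65.7% of its calls were higher in place of 46.4% (17.8% of genes higher, 9.29% lower). With that scaling 3 of the 10 hosts were called higher, SNHG5 joining GAS5 and ZFAS1, and 2 lower, SNHG1 and SNHG16, and no direction of the 10 turned.

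**Figure D2:**
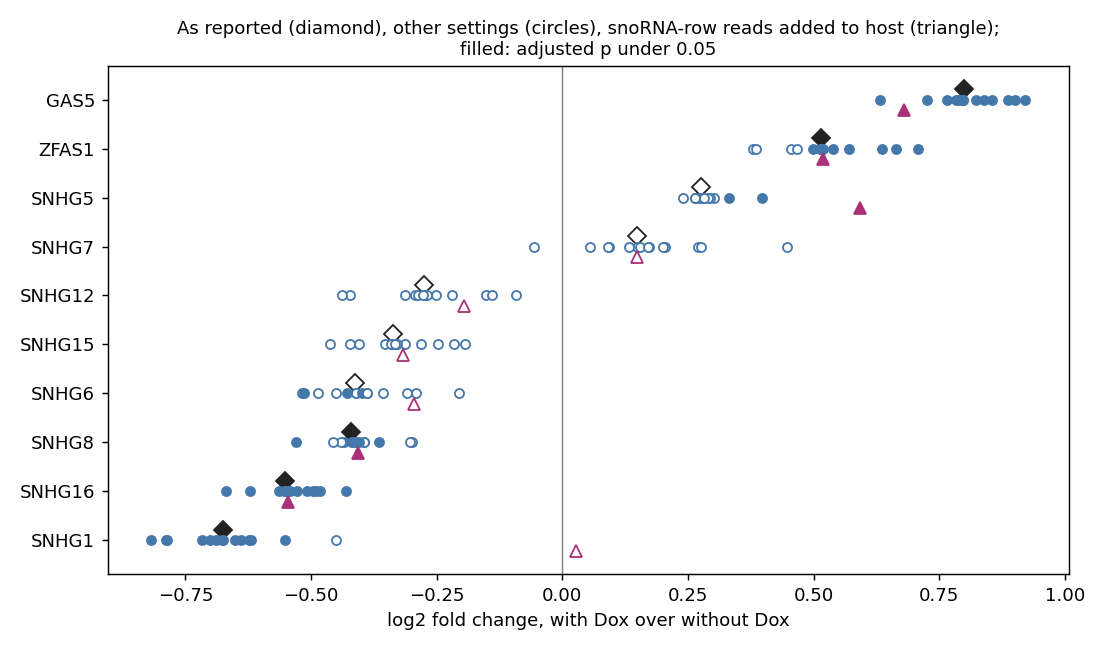
Log2 fold change with Dox over without Dox of each host transcript (horizontal axis) as reported (diamond) and under 15 other settings (circles, and a triangle for the fit in which reads on snoRNA rows were added to their host). Filled symbols passed an adjusted p of 0.05; GAS5 and SNHG16 are filled throughout, and the triangle of SNHG1 lies at 0.03.

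The snoRNAs that lie within the hosts have rows of their own in the count table. Of 35 such rows, 34 lie outside the exons of the canonical host transcript in GENCODE 44, the exception being SNORA9 in SNHG15, and 6 had no read in any library. A mature snoRNA has no poly(A) tail, so what these rows count in libraries primed at poly(A) is not known from the counts. Of the 35 rows, 28 did not pass the filter and had at most 24 reads in a library. SNORD26, SNORD50A and SNORD79 held 95.7% to 97.0% of the reads on all 35. These 3 overlap exons of some other annotated host transcripts. SNORD79 does so in 16 of 91 of GAS5, SNORD50A in 15 of 89 of SNHG5 and SNORD26 in 10 of 80 of SNHG1.

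The sequences of these 3 RNAs and of SNORD50B, which shares a host with SNORD50A, are given from hg38 because most of the reads in question fall on them. Capitals mark the first TGATGA, the letters of box C, and the last CTGA, those of box D, the motifs by which the C/D proteins bind. Both were searched on the RNA's own strand.
SNORD79: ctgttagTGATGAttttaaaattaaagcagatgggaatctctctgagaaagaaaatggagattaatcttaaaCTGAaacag
SNORD26: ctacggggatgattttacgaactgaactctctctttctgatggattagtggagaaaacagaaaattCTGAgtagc
SNORD50A: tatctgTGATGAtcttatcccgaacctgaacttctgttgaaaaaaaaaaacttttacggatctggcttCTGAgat
SNORD50B: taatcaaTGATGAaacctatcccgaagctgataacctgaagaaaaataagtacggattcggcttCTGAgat
RefSeq places them at chr1:173865350-173865430, chr11:62855292-62855366, chr6:85677294-85677368 and chr6:85677589-85677659, all on the minus strand. SNORD26 does not hold the letters TGATGA. SNORD50A holds a run of 11 A within the RNA, the longest among the 33 hosted snoRNAs whose sequence was read, where the median of the longest run was 3 and 1 had a run of at least 10.

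Of the 7 snoRNA rows that were tested, 4 rose with Dox in edgeR and 0 fell, beside 11.9% of all genes higher and 13.7% lower. All 7 had log2 fold changes above 0 in edgeR and in DESeq2. SNORD50A had 504.1, 623.6 and 406.6 CPM without Dox and 735, 669.6 and 1158 CPM with Dox, so that the conditions did not overlap. Its log2 fold change was 0.74 (SE 0.19, adjusted p = 0.00749, edgeR's quasi-likelihood test), and it was 0.46 without replicate 3 with Dox. SNORD50B, with few reads, had a log2 fold change of 1.02 (adjusted p = 0.0495, edgeR's quasi-likelihood test). This call was lost in 5 other settings, DESeq2 among them (adjusted p = 0.0859), and the value was 0.55 when the third Dox library was left out (adjusted p = 0.335, same test in edgeR).

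SNORD79 had 347.1, 297.4 and 199.7 CPM without Dox and 556.9, 455 and 322.6 CPM with Dox (log2 fold change 0.66, SE 0.20, adjusted p = 0.0190, edgeR's quasi-likelihood test). Replicate 3 was the lowest in both conditions, and the conditions overlapped. The call was lost when replicate 3 without Dox was left out (0.46, adjusted p = 0.0903, again in edgeR) or replicate 1 with Dox (0.46, adjusted p = 0.140, again in edgeR). SNORD87, in SNHG6, had 17.0, 15.2 and 10.1 CPM without Dox and 35.0, 33.7 and 15.2 CPM with Dox (log2 fold change 0.98, SE 0.28, adjusted p = 0.0171, edgeR's quasi-likelihood test). Leaving out the same libraries lost its call too (adjusted p = 0.0871 and 0.104, again in edgeR). SNORD26, in SNHG1, had 286.8, 258.3 and 147.2 CPM without Dox and 341.2, 334.5 and 189.5 CPM with Dox, a log2 fold change of 0.32 (95% interval -0.14 to 0.79) that was not called. It was 0.08 when replicate 3 without Dox was left out (adjusted p = 0.833, edgeR), and 0.56 and called when replicate 3 with Dox was (adjusted p = 0.0383, edgeR). SNORD81, in GAS5, and SNORA24, in SNHG8, had log2 fold changes of 0.37 and 0.73 and were not called. With 1 library left out in turn, that of SNORD81 was 0.17 to 0.56, lowest without replicate 3 and highest without replicate 2 of the untreated cells.

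**Figure D3:**
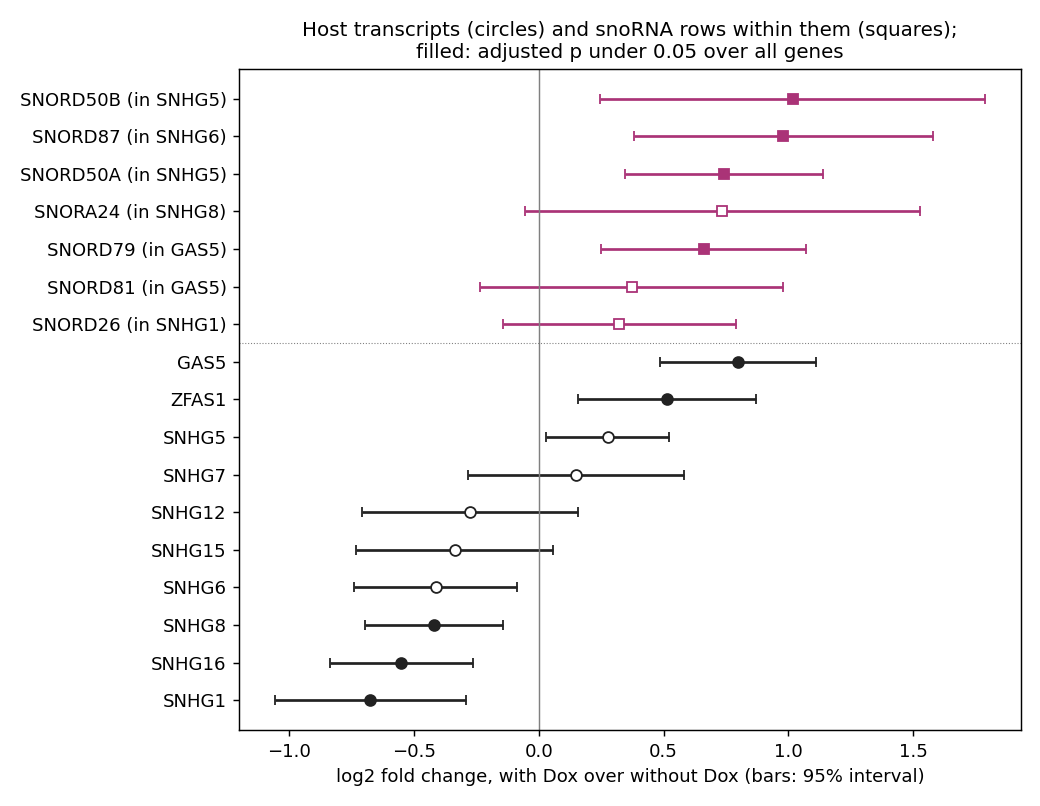
Log2 fold change with Dox over without Dox (horizontal axis, bars give the 95% interval) of the 10 host transcripts (black circles) and of the 7 tested snoRNA rows within them (purple squares). The hosts lie from -0.68 to 0.80, and all 7 snoRNA rows lie above 0, 4 of them called (filled).

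The ratio of reads on a snoRNA row to reads on its host in the same library does not depend on scaling. For SNORD26 and SNHG1 it was 2.03, 1.88 and 1.33 without Dox and 6.40, 3.41 and 2.06 with Dox, so each ratio with Dox was above each without. For SNORD87 and SNHG6 it was 0.0752, 0.0678 and 0.0308 without Dox and 0.163, 0.164 and 0.0912 with Dox, which again did not overlap. The log2 ratio was higher with Dox by 1.05 and 1.32 in these pairs, and by 1.10 in SNORA24 and SNHG8. Each of these 3 differences had p = 0.1 in a two-sided exact permutation test, the smallest p that 3 libraries against 3 allow (adjusted p = 0.233 over 7 ratios, exact permutation test), so that no ratio could pass the threshold. For SNORD79 and GAS5, which both rose, the log2 ratio differed by -0.13, and the ratios overlapped (p = 0.6, two-sided exact permutation test). The ratios of SNORD50A and SNORD50B to SNHG5 and of SNORD81 to GAS5 overlapped as well.

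**Figure D4:**
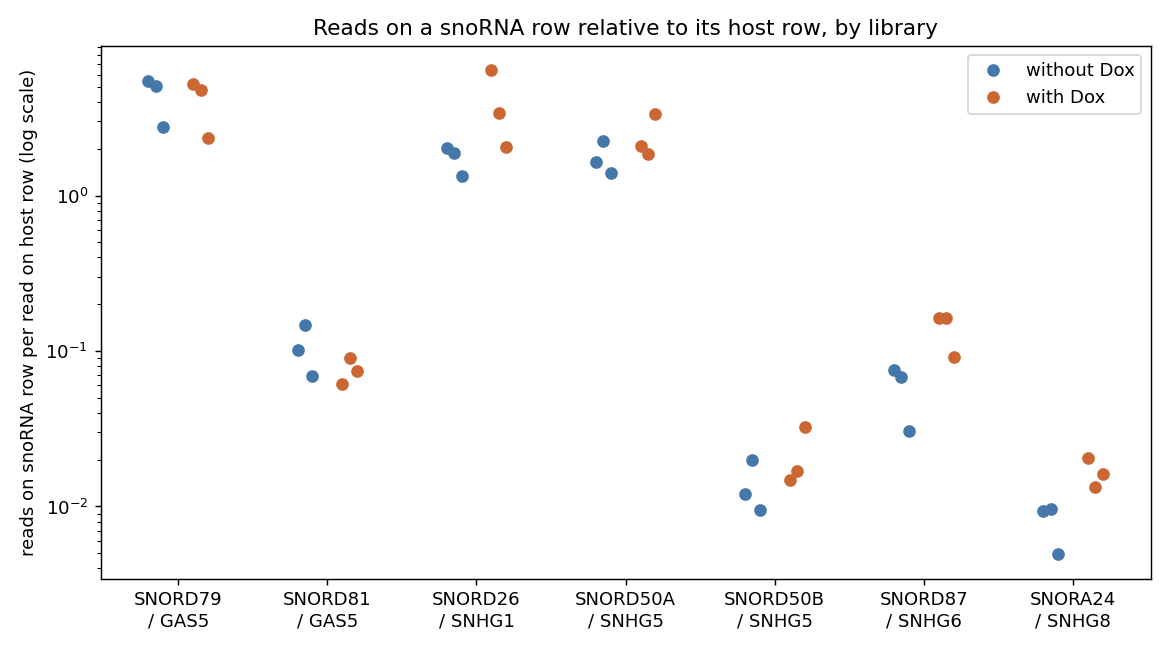
Reads on a snoRNA row per read on its host row (vertical axis, log scale) in each library without Dox (blue) and with Dox (orange), replicates 1 to 3 from the left. The libraries with Dox lie above those without for SNORD26, SNORD87 and SNORA24 and overlap with them for the other 4 pairs.

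The calls of SNHG1 and SNHG5 changed with the row to which snoRNA reads were assigned. With the reads on snoRNA rows added to the host before the fit, SNHG1 had a log2 fold change of 0.03 in place of -0.68 (adjusted p = 0.931, edgeR's quasi-likelihood test), and SNHG5 rose by 0.59 on the log2 scale (adjusted p = 0.00893, same test in edgeR). The calls of GAS5, ZFAS1, SNHG8 and SNHG16 were kept. This setting was chosen after the data were seen.

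Across the table, 47 of 539 rows with a SNORD or SNORA name passed the filter, with a median log2 fold change of 0.46. Of these 47, 11 were higher with Dox and 2 lower, beside 11.9% and 13.7% of all genes tested. The lower ones were SNORA79 (-1.97) and SNORA50C (-0.82), which are named because of their values. This group of rows was formed after values were seen.

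The last exon of the canonical transcript overlaps an exon of a protein-coding gene on the opposite strand in SNHG6 (MCMDC2), SNHG7 (DIPK1B), SNHG8 (PRSS12) and SNHG12 (TRNAU1AP, by 8 bases). Whether reads were counted by strand is not given in the sources used here, so reads could not be told apart there. The row of MCMDC2 had 5 to 26 reads in a library and that of PRSS12 4 to 18. TRNAU1AP was lower with Dox (log2 fold change -0.48, adjusted p = 0.0188, edgeR's quasi-likelihood test), and the row FAM69B, the older symbol of DIPK1B, had 0.16 (adjusted p = 0.541, same test in edgeR).

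Other noncoding snoRNA hosts were described as a list of 20 genes, 3 of which were found under an older symbol. Of the 14 tested, 2 rose, 2 fell and 10 did not pass, beside 11.9% of all genes higher and 13.7% lower. The median log2 fold change of the 14 was -0.11. DANCR, which carries SNORA26, fell from 45.8 ± 3.59 to 27.4 ± 4.80 CPM (SD, n = 3 each; log2 fold change -0.72, SE 0.16). SNHG30, under the symbol LINC02001, had few reads and a log2 fold change of -1.18. SNHG32, under the symbol C6orf48, rose by 0.58 on the log2 scale and SNHG25 by 0.45. In edgeR, leaving out 1 library lost the call of LINC02001 in 4 of 6 cases (adjusted p up to 0.0841), of SNHG25 in 4 (up to 0.168) and of C6orf48 in 3 (up to 0.0647), while that of DANCR was kept.

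Protein-coding genes that host snoRNAs were listed in 2 groups, and their calls are given beside 11.9% of all genes higher and 13.7% lower. Of 23 ribosomal protein genes with snoRNAs in their introns, themselves TOP transcripts, 1 rose, 4 fell and 18 did not pass, with a median log2 fold change of 0.06. RPL23A and RPSA had log2 fold changes of -0.61 and -0.58, RPL27A had -0.41 and RPL10 had 0.48. The call of RPL27A was lost in 9 of 15 other settings, and that of RPL10 without replicate 1 of either condition (adjusted p = 0.104, edgeR). With library totals alone this group had 3 higher and 2 lower. Of 17 tested hosts of other kinds, 2 rose, 6 fell and 9 did not pass, with a median of -0.32. TPT1, an abundant TOP mRNA, had 788.8, 836.1 and 937.4 CPM without Dox and 1544, 1417 and 1421 CPM with Dox (log2 fold change 0.77, SE 0.13, adjusted p = 2.083e-04, edgeR's quasi-likelihood test). EIF4A2, an RNA helicase of translation initiation, rose by 0.86 on the log2 scale. RCC1, the nuclear exchange factor of Ran, fell by 0.91 on the log2 scale, and DKC1, the pseudouridine synthase of H/ACA particles, by 0.66.

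Genes for the proteins that assemble on snoRNAs were described as a list of 19, all tested. Of these, 9 fell, 1 rose and 9 did not pass, and the median log2 fold change was -0.31, which is described beside 13.7% of all genes lower. NOP56, NOP58 and DKC1, all called lower, are also in the list of protein-coding hosts of other kinds, so these lists are not independent. FBL, the methyltransferase of box C/D particles, had 592.9, 627.4 and 438.3 CPM without Dox and 323.8, 315.3 and 279.9 CPM with Dox (log2 fold change -0.85, SE 0.14, adjusted p = 2.737e-04, edgeR's quasi-likelihood test). NOP56, a core protein of the same particles and itself a snoRNA host, had -0.67, and RUVBL1, an ATPase of the assembly complex, had -0.66. ZNHIT6, an assembly factor, rose by 0.42 on the log2 scale, a call that 4 of 6 leave-one-out fits in edgeR lost, those without replicate 1, 2 or 3 of the untreated cells and without the first Dox library (adjusted p = 0.0580 to 0.0899).

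Of 18 nonsense-mediated decay genes, 1 rose, 1 fell and 16 did not pass, beside 11.9% of all genes higher and 13.7% lower. The median log2 fold change of the 18 was -0.13. SMG6, the endonuclease of this pathway, rose by 0.47 on the log2 scale (adjusted p = 0.0219, edgeR's quasi-likelihood test; lost on leaving out replicate 3 without Dox, adjusted p = 0.127, or replicate 1 with Dox, adjusted p = 0.0728). With library totals alone 3 of the decay genes were higher, and with the replicate block 2 were higher and 3 lower. MAGOHB, a subunit of the exon junction complex, fell by 0.73 on the log2 scale. UPF1, the central helicase, had a log2 fold change of -0.12 (95% interval -0.37 to 0.13). Of 18 genes of TOP translation control, 0 passed the adjusted threshold in edgeR and in DESeq2, and 2 had an unadjusted p under 0.05 in edgeR, MTOR and TSC1. With library totals alone 1 was higher. MTOR had the smallest p among them, with a log2 fold change of -0.30 (adjusted p = 0.0878, edgeR's quasi-likelihood test), and LARP1 had -0.22 (95% interval -0.47 to 0.04).

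**Figure D5:**
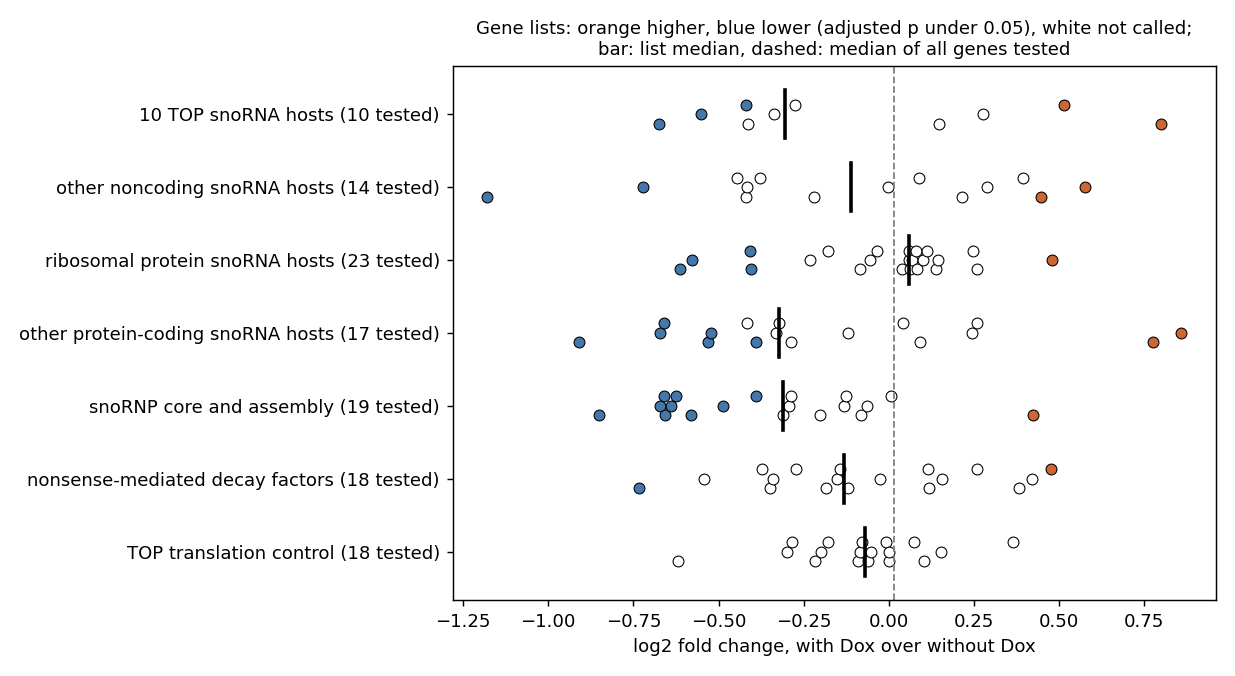
Log2 fold change with Dox over without Dox (horizontal axis) of each tested gene in 7 lists (rows), with list medians as black bars and the median of all genes, 0.02, as a dashed line. The 10 TOP snoRNA hosts spread from -0.68 to 0.80, with 2 called higher (orange) and 3 lower (blue), and the snoRNP list has 9 lower and 1 higher.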

How the data were processed

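The 3ʹ ends of mRNAs were sequenced in 3 libraries without and 3 with Dox. The authors demultiplexed reads with CASAVA 1.8.2, used STAR for mapping to hg38, and deposited a table of counts by gene symbol. HTSeq is among the tools in the submitters' processing notes. The annotation and strand setting are not given in the sources used here, and the labels and the paper name different kits (FWD and REV). The authors also deposited a normalized signal per library (not whole numbers, method not stated), used as an alternative with limma on log2(value + 1), 27 unmatched names left out. 5 rows that name no gene stayed out of totals and tests.

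Counts were tested with edgeR 4.0.16 (TMM, filterByExpr, quasi-likelihood, Benjamini-Hochberg over 12233 genes, adjusted p under 0.05) in R 4.3.3. DESeq2 1.42.0 and limma 3.58.1 served alternatives. On simulated counts of 12233 genes, the test called 75% of genes changed 2-fold and 94% of those changed 4-fold, with 6.11% of calls false. Reads carry no molecular identifiers. The members and lists were chosen with earlier results of these data known. In each list at most the 3 calls with the smallest adjusted p per direction were named. LARP1, UPF1 and TSC1 were named outside this rule, after their values were seen, and so was NOP58, because it is in both lists. Replicates of a condition differed by more than sampling noise (chi-square per degree of freedom 4.21 to 12.6). Sequences are from hg38, GENCODE 44 and RefSeq (GRCh38.p14). Some genes that these steps cover are not reported here.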

Additional observations from a re-analysis of the deposited data

How the results depend on the processing

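Of 15 other settings, 13 were planned and 2, the deposited normalized values and the sum of host and snoRNA rows, were added after the data were seen. The count of genes called with Dox was 3125, and 2181 to 3537 under these settings, and ABHD5 kept its call in each (0.81 to 1.06). Of 150 values for the 10 hosts, 132 kept direction and side of the threshold, 10 lost the call, 6 gained it and 2 changed sign. The sign changes were SNHG1 with snoRNA rows added (0.028) and SNHG7 without replicate 2 without Dox (-0.057). Leaving out each library gave SNHG7 values of -0.057 to 0.447. Hosts called higher were 1 to 2, and hosts called lower 1 to 4, with each library left out in turn. The count of higher hosts was 1 without replicate 1 or 2 without Dox and without replicate 1 or 3 with Dox. The count of lower hosts was 1 without replicate 1 with Dox. GAS5 and SNHG16 kept their calls throughout.

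Deviations of same-numbered libraries correlated across genes with r of -0.01, 0.23 and 0.09. With 3 libraries in each condition, these values cannot decide whether replicate numbers pair the libraries. With the replicate block, 3537 genes were called, 2 hosts were higher and 4 lower, SNHG6 being added (-0.40, adjusted p = 0.0478, edgeR's quasi-likelihood test), and SNORD26 was called (0.33, adjusted p = 0.0357, same test in edgeR). The causes were not tested.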
